A study of Mus musculus with 2 samples.

Results

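The Ikaros family of mouse comprises 5 zinc finger genes, Ikzf1 (Ikaros), Ikzf2 (Helios), Ikzf3 (Aiolos), Ikzf4 (Eos) and Ikzf5 (Pegasus). They were examined in a map of accessible chromatin of splenic B cells. The members were chosen by name out of 22350 protein-coding genes on chromosomes 1 to 19 and X. All 5 were found in the GENCODE M1 annotation. Every DNase I hypersensitive site (DHS) that overlapped a member's gene body or the 50 kb on either side by at least 1 bp was assigned to that member. This gave 73 of the 47542 DHS of the list, in windows of 861 kb in all.

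The cells were B220-selected splenic B cells of C57/Bl6 mice aged 8 weeks, with both alleles of Trp53 intact and mock treatment, and the number of animals is not given in the sources used here. DNase I cuts DNA that is not packed in nucleosomes, and a DHS is a region where the short fragments of such a digest pile up above background. The series holds 1 DNaseI library, with a list of called DHS, and 1 input library, with no replicates, so that no value has a spread over animals and no test between groups was possible. The deposited list holds no read counts, the depth is unknown, and a place without a DHS is one where the caller reported none. A weak DHS in a few cells and a weak DHS in every cell cannot be told apart in such a bulk digest.

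Proteins of the family bind DNA through zinc fingers near their amino terminus, for most members at sites with a GGGAA core. They pair with each other through a second group of fingers at the carboxyl terminus. They recruit the NuRD remodelling and deacetylase complex and other corepressors, and they can both silence and maintain genes of the lymphoid lineages. Ikaros is needed for the formation of lymphocytes and Aiolos for the normal maturation of B cells. Helios and Eos are best known from T cells, in particular regulatory T cells, and Pegasus is the most divergent and most widely expressed member.

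The DNA under the DHS that carry the results is shown first, in the mm9 build and on the strand of the member. The sequences were read from the reference genome. Capitals mark the words searched for, which were TGGGAA (Ikaros), GAGGAA (Ets factors), CAGCTG (an E-box), TGTGGT (Runx), TCCCNNGGG (EBF1) and CNAGGGGGC (CTCF), each on either strand. In capitals, TTCCCA is therefore the Ikaros word on the other strand, TTCCTC the Ets word and ACCACA the Runx word. No bases of an annotated UTR are printed. For Ikzf1 the first line gives the 170 bases of its highest-scoring promoter DHS that lie before the first start site inside it (chr11:11585758-11585927, plus strand). The second gives 104 bases of the neighbouring DHS, shown for its pair of Ikaros words (chr11:11585201-11585304, plus strand). That DHS covers the first start site, at 11585006, but the printed bases lie downstream of the site and do not contain it. The third gives the central 300 bases of the highest-scoring Ikzf1 DHS away from every protein-coding promoter, in an intron (chr11:11666662-11666961, plus strand).
Ikzf1 promoter: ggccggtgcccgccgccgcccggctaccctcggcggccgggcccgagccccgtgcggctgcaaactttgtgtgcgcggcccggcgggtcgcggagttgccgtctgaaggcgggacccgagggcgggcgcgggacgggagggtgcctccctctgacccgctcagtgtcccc
Ikzf1 first start site: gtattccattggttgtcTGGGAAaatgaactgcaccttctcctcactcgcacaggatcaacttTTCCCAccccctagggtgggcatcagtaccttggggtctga
Ikzf1 intron: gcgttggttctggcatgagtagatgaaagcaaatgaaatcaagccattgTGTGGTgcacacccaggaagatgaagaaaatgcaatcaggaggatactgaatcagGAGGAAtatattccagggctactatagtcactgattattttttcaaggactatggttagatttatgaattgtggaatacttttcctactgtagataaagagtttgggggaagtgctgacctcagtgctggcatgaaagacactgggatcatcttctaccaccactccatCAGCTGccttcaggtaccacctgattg

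The 170 printed bases of the Ikzf1 promoter DHS have a GC content of 78.8% with 25 CpG. They lie at the edge of that DHS, which has 56.6% GC over its whole length. The central 300 bases of the intronic DHS have 43.0% GC with 1 CpG. An edge and a centre are different parts, so that 78.8% and 43.0% do not compare the DHS as wholes. For the other members the central 300 bases of the highest-scoring promoter DHS are given, and for Ikzf3 also those of the highest-scoring DHS away from any protein-coding promoter. They lie at chr1:69735456-69735755 for Ikzf2, chr11:98412048-98412347 and chr11:98320718-98321017 for Ikzf3, chr10:128083852-128084151 for Ikzf4 and chr7:138553439-138553738 for Ikzf5, all on the minus strand. The bases labelled Ikzf3 promoter come from a DHS that covers the start site of another gene, Zpbp2. The DHS over the start sites of Ikzf3 itself is not printed.
Ikzf2 promoter: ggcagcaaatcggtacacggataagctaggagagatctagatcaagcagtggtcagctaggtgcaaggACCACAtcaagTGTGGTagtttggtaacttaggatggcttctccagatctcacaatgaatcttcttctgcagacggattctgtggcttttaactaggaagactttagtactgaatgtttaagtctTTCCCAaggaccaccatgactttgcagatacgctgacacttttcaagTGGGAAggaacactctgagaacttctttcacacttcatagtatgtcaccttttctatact
Ikzf3 promoter: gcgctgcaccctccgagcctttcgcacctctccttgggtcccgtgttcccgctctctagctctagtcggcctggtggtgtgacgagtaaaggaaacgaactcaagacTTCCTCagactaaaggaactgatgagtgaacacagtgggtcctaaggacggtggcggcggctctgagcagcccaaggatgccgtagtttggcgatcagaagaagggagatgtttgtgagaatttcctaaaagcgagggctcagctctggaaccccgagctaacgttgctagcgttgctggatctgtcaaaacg
Ikzf3 downstream: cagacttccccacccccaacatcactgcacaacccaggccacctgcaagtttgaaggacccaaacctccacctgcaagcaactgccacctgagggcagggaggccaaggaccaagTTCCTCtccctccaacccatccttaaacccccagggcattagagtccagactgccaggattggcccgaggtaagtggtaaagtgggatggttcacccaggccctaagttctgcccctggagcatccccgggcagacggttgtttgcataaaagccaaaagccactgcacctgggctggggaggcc
Ikzf4 promoter: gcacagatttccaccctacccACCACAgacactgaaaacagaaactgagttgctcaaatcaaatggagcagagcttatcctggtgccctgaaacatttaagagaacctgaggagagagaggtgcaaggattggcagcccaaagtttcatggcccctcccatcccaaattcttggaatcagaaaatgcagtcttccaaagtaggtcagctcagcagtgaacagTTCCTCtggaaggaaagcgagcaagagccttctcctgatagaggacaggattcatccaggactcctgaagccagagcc
Ikzf5 promoter: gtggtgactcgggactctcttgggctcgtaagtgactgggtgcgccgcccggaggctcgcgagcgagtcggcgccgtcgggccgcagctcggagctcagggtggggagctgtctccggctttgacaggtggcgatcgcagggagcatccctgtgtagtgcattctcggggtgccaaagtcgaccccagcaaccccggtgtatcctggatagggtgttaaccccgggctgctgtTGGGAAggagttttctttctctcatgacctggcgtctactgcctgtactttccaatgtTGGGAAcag

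The Ikzf2 and Ikzf5 sequences each hold 2 Ikaros words, and those of Ikzf3 and Ikzf4 hold none. The Ikzf5 promoter is the richest in CpG of these 5 sequences, with 22. The sequence labelled Ikzf3 promoter follows with 18, but it comes from the DHS that covers the start site of Zpbp2. The sequences of Ikzf2 and Ikzf4 have 4 and 1.

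Most of the accessible sites were in the windows of Ikzf1 and Ikzf3. The window of Ikzf1 held 33 DHS and that of Ikzf3 held 25, against 10 for Ikzf4, 4 for Ikzf5 and 1 for Ikzf2. Per 100 kb of window these counts were 17.6 (95% exact Poisson interval 12.1 to 24.7) for Ikzf1 and 13.8 (8.93 to 20.4) for Ikzf3. They were 8.68 (4.16 to 16) for Ikzf4, 3.28 (0.894 to 8.40) for Ikzf5 and 0.393 (0.00994 to 2.19) for Ikzf2. The intervals cover counting error only. Those of Ikzf1 and Ikzf3 lay above those of Ikzf5 and Ikzf2, while Ikzf1 overlapped Ikzf3, and Ikzf4 overlapped both of these and Ikzf5.

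The median protein-coding gene had 3.39 DHS per 100 kb of the same kind of window, with quartiles at 0.663 and 6.92. Ikzf1 had a denser window than 98.9% of protein-coding genes, Ikzf3 than 96.2%, Ikzf4 than 82.9%, Ikzf5 than 49.4% and Ikzf2 than 23.6%. The 5 windows together held 8.48 DHS per 100 kb (6.65 to 10.7), and DHS covered 8.19% of their length, beside 3.06% for the median protein-coding gene. The pooled interval takes the DHS as independent and at a common rate, although member densities ran from 0.393 to 17.6. It gives no spread between members, and Ikzf5 and Ikzf2 lay under the median gene. With only DHS at or above the median score of the list, Ikzf1 kept 9.05 per 100 kb (denser than 96.5% of genes), while Ikzf3 had 4.97 (82.2%), near Ikzf4 at 4.34 and Ikzf5 at 3.28. With 100 kb on either side Ikzf1 had 12.2, Ikzf3 11.4 and Ikzf4 10.7. The lead of Ikzf1 and Ikzf2's last place held in both settings, and the distance of Ikzf3 from Ikzf4 did not.

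**Figure D1:**
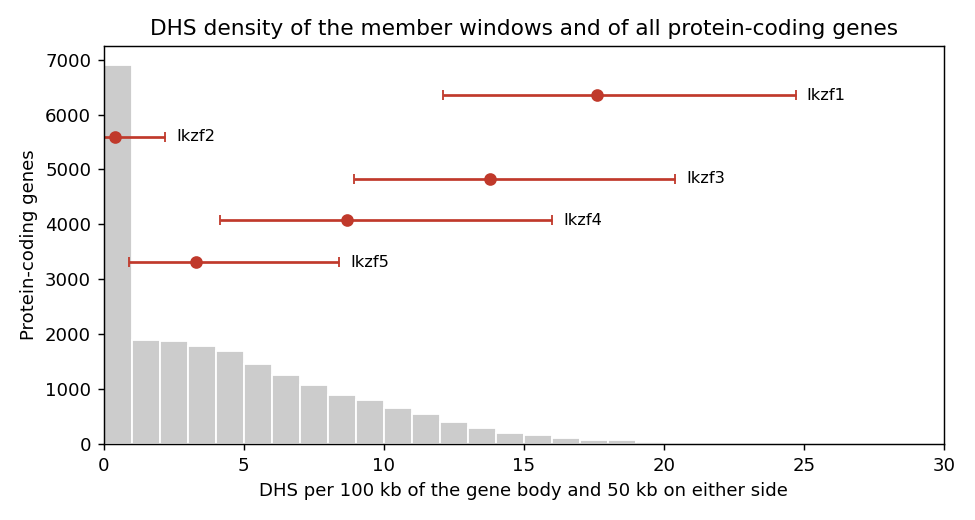
The grey histogram counts protein-coding genes (vertical axis) by the number of DHS per 100 kb of gene body and 50 kb on either side (horizontal axis), and each red point is 1 member with its 95% exact Poisson interval, at an arbitrary height. Ikzf1 at 17.6 and Ikzf3 at 13.8 lie in the right tail, and Ikzf2 at 0.393 in the leftmost bin.

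All 5 members had a DHS in a promoter, taken as 5 kb upstream to 2 kb downstream of any annotated transcription start site (TSS). The exact binomial interval on 5 of 5 is 47.8 to 100%, and 57.0% of all protein-coding genes had such a DHS. The share of the members cannot be told from that background on counting error alone. A DHS over a TSS itself was found for Ikzf1, Ikzf3 and Ikzf5 but not for Ikzf2 and Ikzf4, that is for 3 of 5 members beside 46.6% of protein-coding genes.

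The score that the authors' peak caller gave each DHS ranked these promoters in the order Ikzf3, Ikzf1, Ikzf5, Ikzf2 and Ikzf4. The highest promoter score was 445.74 for Ikzf3, 248.49 for Ikzf1, 66.53 for Ikzf5, 25.32 for Ikzf2 and 15.83 for Ikzf4. The scale of the score is not stated and it is used here only for order within the list, where its median is 32.65. Ikzf3 scored higher than 99.7% of protein-coding genes, Ikzf1 than 96.0%, Ikzf5 than 59.4%, Ikzf2 than 47.8% and Ikzf4 than 44.9%, with genes without a promoter DHS set to 0. The first place of Ikzf3 rests on a DHS that covers the TSS of another gene, Zpbp2, and the DHS over the TSSs of Ikzf3 scored 135.91. The median of the members was 66.5, against 33.5 for all protein-coding genes and 101 for those with a promoter DHS. The order depends on the promoter window. With 1 kb on each side of a TSS, Ikzf1 at 248.49 came before Ikzf3 at 135.91, and Ikzf4 at 15.83 before Ikzf2, which then had no promoter DHS. Without replicates it cannot be said which neighbours in the order differ.

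**Figure D2:**
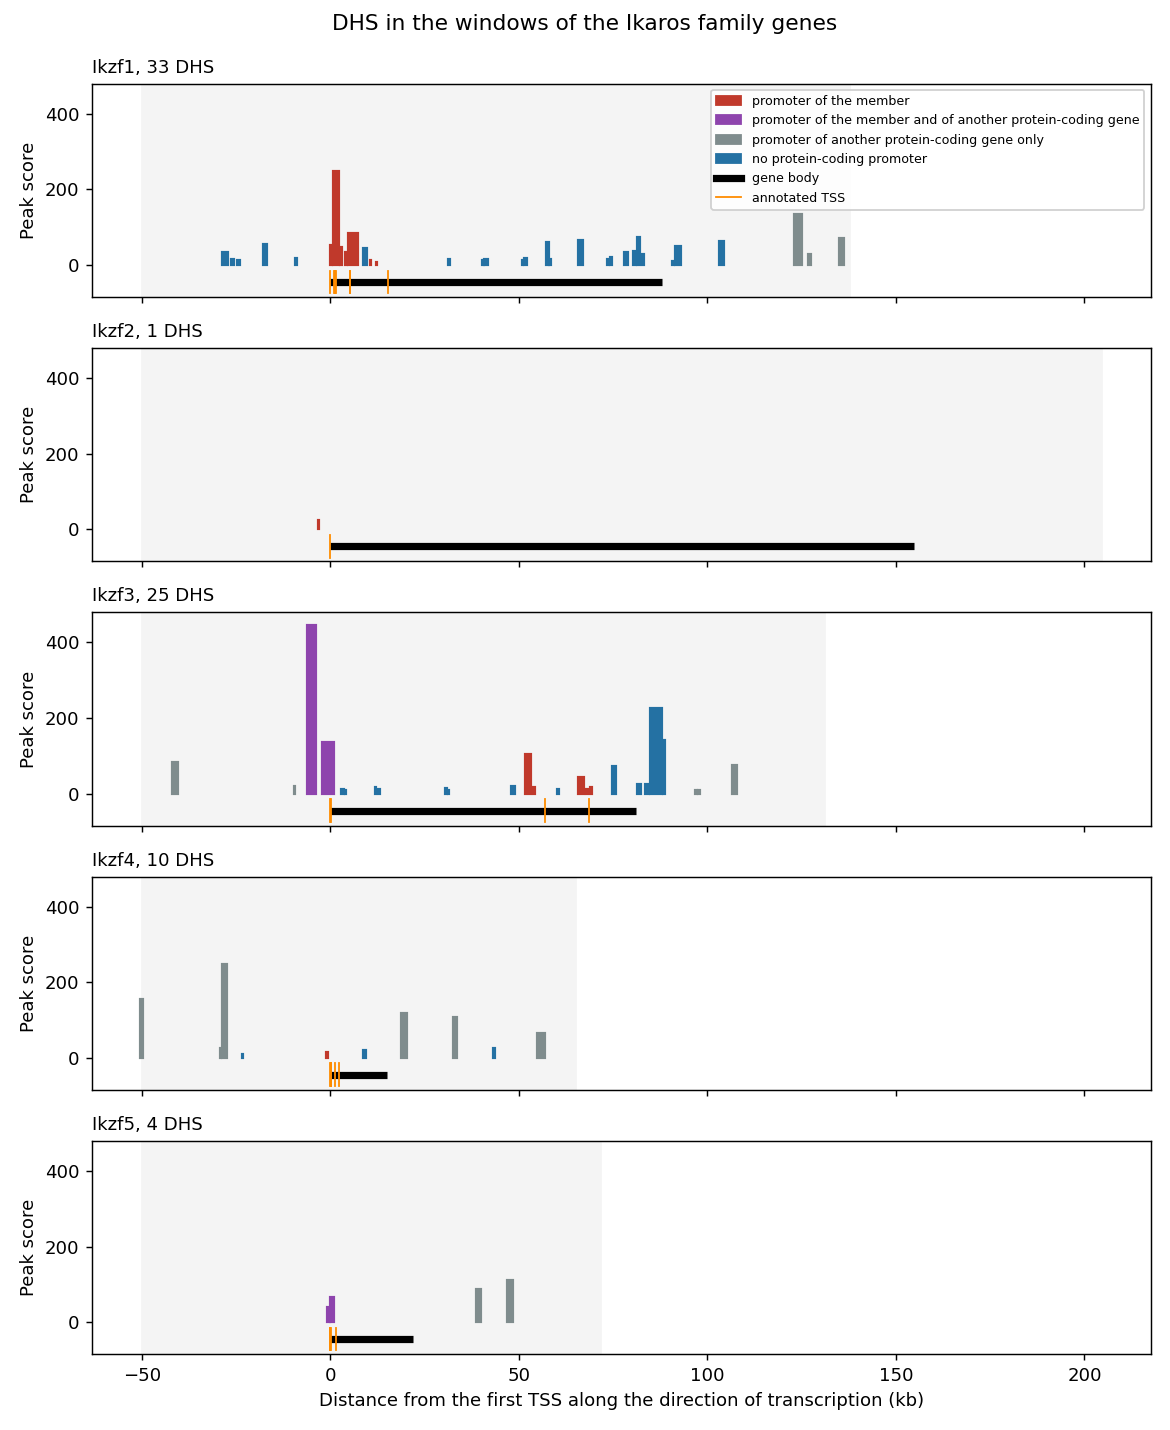
Each panel shows 1 member with its DHS as boxes whose width is their extent and whose height is the peak score (vertical axis), by distance in kb from the first TSS along the direction of transcription (horizontal axis). The shaded area is the window, the black bar the gene body and orange lines the annotated TSSs, and colours give the promoter that a DHS overlaps. Ikzf1 and Ikzf3 carry 22 and 15 DHS over their bodies, with gaps between groups, the body of Ikzf2 carries none, and the tall boxes in the window of Ikzf4 are at promoters of other genes.

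Ikzf1 (ENSMUSG00000018654.10, chr11:11585006-11672929, plus strand, 87924 bp) had 7 promoter DHS, 15 in introns outside its promoters, 5 upstream and 6 downstream. Having 7 promoter DHS put it above 99.6% of protein-coding genes, whose median was 1. The highest-scoring of them (chr11:11585758-11587284, 1527 bp, score 248.49) was at percentile 98.2 of the list by score and covered 4 of the 8 annotated TSSs. The DHS just before it (chr11:11584888-11585421, score 51.38) covered the first TSS.

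Another accessible start region of Ikzf1 lay further into the gene. This DHS was 2718 bp wide (chr11:11589623-11592340, score 83.23), the widest in the window, and covered the TSSs at 11590265 and 11590335. The 1 kb around these 2 TSSs had a GC content of 47.2 and 47.9% and ratios of observed to expected CpG of 0.18 and 0.193, far from the composition of a CpG island. The 1 kb around the 4 TSSs inside the highest-scoring DHS had 57.2 to 77.1% GC and ratios of 0.943 to 0.979. Thus 7 of 8 Ikzf1 start sites lay in a DHS, and both CpG-rich and CpG-poor ones were among them. The exception was the TSS at 11600222, whose nearest promoter DHS scored only 13.61 and 7.53. The remaining 2 promoter DHS, between the start regions, scored 48.12 and 35.39. The 7 promoter DHS also lay in the promoter windows of the noncoding genes Gm11999 or Gm12000.

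The introns of Ikzf1 held 15 further DHS with scores from 13.16 to 73.08, of which 6 were at or above the median of the list. The highest (chr11:11666388-11667234, 847 bp, score 73.08) lay near the 3' end of the gene, 34230 bp from the nearest start site of another protein-coding gene. With gaps under 10 kb counted as close, 29 of the 33 DHS of Ikzf1 fell into a 5' group of 13 over 41240 bp and a 3' group of 16 over 61809 bp. Of all 20928 such groups in the genome, 99 held more than 13 DHS and 41 held more than 16. In the 5' group were the 5 upstream DHS, with scores from 13.74 to 54.98, which ended 27201 to 8885 bp before the first TSS. Of the 6 downstream DHS, 3 were at promoters of neighbours. These were Fignl1, an ATPase gene (133.94 and 29.45), and Ddc, which encodes dopa decarboxylase (70.65). Leaving out every DHS at the promoter of another protein-coding gene kept 30 of the 33, and Ikzf1 was then denser than 99.8% of protein-coding genes. With promoters of noncoding genes left out as well, 22 were kept (denser than 99.3%). Over the gene body alone Ikzf1 was denser than 91.6%.

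Ikzf3 (ENSMUSG00000018168.8, chr11:98326216-98407345, minus strand, 81130 bp) had 7 promoter DHS, 3 in exons, 6 in introns, 2 upstream and 7 downstream. The DHS over its 5' TSSs (chr11:98406326-98409444, score 135.91) was 3119 bp wide and covered 2 of the 4 annotated TSSs. These 2 were CpG-rich, with 57.4 and 58.2% GC and ratios of 0.911 and 0.909. The highest-scoring DHS of any member (chr11:98411000-98413395, 2396 bp, score 445.74, percentile 99.9) lay 3655 bp upstream of the outer TSS. It also covered the TSS at 98412411 of Zpbp2, a gene known for its part in sperm binding to the egg coat, transcribed away from Ikzf3. To which of the 2 genes this accessible site relates cannot be told from the list.

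The other 5 promoter DHS of Ikzf3 were at its internal TSSs, both of noncoding transcripts, and covered neither. They scored 18.04, 11.12 and 45.01 around the TSS at 98338717, where a U2 small nuclear RNA gene is also annotated, and 16.73 and 104.47 upstream of the one at 98350334. The last of these (chr11:98353981-98355650, percentile 85.5) was thus a site in the body of the gene, 3647 bp from that TSS.

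Beyond the 3' end of Ikzf3 stood a pair of strong DHS away from any protein-coding promoter. One was 3249 bp wide, the widest in the 5 windows (chr11:98319243-98322491, score 226.34, percentile 97.6). Its neighbour (chr11:98318447-98319178) scored 140.71. They were 3725 and 7038 bp beyond the 3' end of Ikzf3 and 4140 and 3344 bp from the nearest start site of another protein-coding gene, that of the adaptor gene Grb7. Of the other DHS in the 5 windows outside the promoter window of every protein-coding gene, in which the internal TSSs of Ikzf3 are counted, none scored above 73.08. The pair belonged to a group of 15 DHS over 59970 bp, and 51 groups in the genome held more. The 9 DHS in exons and introns outside promoters scored lower, from 8.21 to 71.66, with 1 at or above the median of the list.

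In the window of Ikzf3, 7 DHS overlapped promoters of 4 other protein-coding genes. These were Zpbp2 with 3 DHS, Grb7 with 2 of low score (8.8 at most), 1810046J19Rik (75.81) and Ormdl3, a regulator of sphingolipid synthesis (83.8). Among the 7 was the DHS over the 5' TSSs of Ikzf3 itself (score 135.91), which also lay in the promoter window of Zpbp2. Without the 7, 18 DHS were left, and Ikzf3 was denser than 98.1% of protein-coding genes. Over the gene body alone it was denser than 87.6%.

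Ikzf5 (ENSMUSG00000040167.9, chr7:138532166-138554035, minus strand, 21870 bp) had 4 DHS, all of them above the median score of the list. One covered 4 of its 5 TSSs (chr7:138553106-138554071, 966 bp, score 66.53), all CpG-rich, with 63.8 to 65.1% GC. The second promoter DHS (chr7:138554190-138554811, score 39.44) began 155 bp upstream of the outer TSS and covered a TSS of Acadsb, an acyl-CoA dehydrogenase gene that is transcribed the other way. Both DHS lay in the promoters of both genes. The other 2 were at the promoters of 2310057M21Rik (111.9) and of Pstk, a kinase gene of selenocysteine tRNA synthesis (87.33). With DHS at promoters of other protein-coding genes left out, the window of Ikzf5 therefore held 0.

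Ikzf4 (ENSMUSG00000002578.8, chr10:128067899-128083047, minus strand, 15149 bp) had a well-filled window, but mostly at other genes. Of the 10 DHS in its window, 6 overlapped promoters of 5 other protein-coding genes. They were those of Suox, which encodes sulfite oxidase (247.79 and 26.03), the endosomal GTPase gene Rab5b (156.41), the ribosomal protein gene Rps26 (119.47), Gm9182 (106.97) and the receptor gene Erbb3 (66.16). The other 4 scored between 11.41 and 26.02, all below the median of the list. Without the 6, Ikzf4 had 3.47 DHS per 100 kb in place of 8.68 and was denser than 74.6% of protein-coding genes.

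None of the 8 annotated TSSs of Ikzf4 was in a DHS. Its only promoter DHS (chr10:128083768-128084234, 467 bp, score 15.83, percentile 19.7) began 721 bp upstream of the outermost TSS and was also at the promoter of Gm17336, which is not a protein-coding gene. A single DHS lay over the gene body, at an exon (chr10:128073474-128074300, score 19.98). The 6 outer TSSs had 59.7 to 60.4% GC but observed to expected CpG ratios of only 0.444 to 0.459, under the 0.6 that was required here for a CpG-rich start site.

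Ikzf2 (ENSMUSG00000025997.7, chr1:69577788-69732534, minus strand, 154747 bp) was the longest member and had no DHS over its body. The only DHS in its window (chr1:69735426-69735785, 360 bp, score 25.32, percentile 40) lay 2892 bp upstream of its single TSS. A window with at most 1 DHS was found for 29.4% of protein-coding genes. The DHS stood at the edge of a stretch of 2649151 bp without any DHS (chr1:67086275-69735425), which contained the whole of Ikzf2 together with Cps1, a urea cycle enzyme of the liver, and Erbb4, a receptor of neural and epithelial cells. Only 128 of the 47454 gaps between neighbouring DHS were longer, and the median gap was 7211 bp. The 1 kb around the Ikzf2 TSS had 46.0% GC and a ratio of 0.397. Repeated sequence, measured as the share of 31-base words found more than once in the assembly, made up 8.04% of the window of Ikzf2. It was 4.18% for Ikzf1, 4.71% for Ikzf3, 12.3% for Ikzf4 and 13.8% for Ikzf5, and its part in the counts of DHS was not tested.

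**Figure D3:**
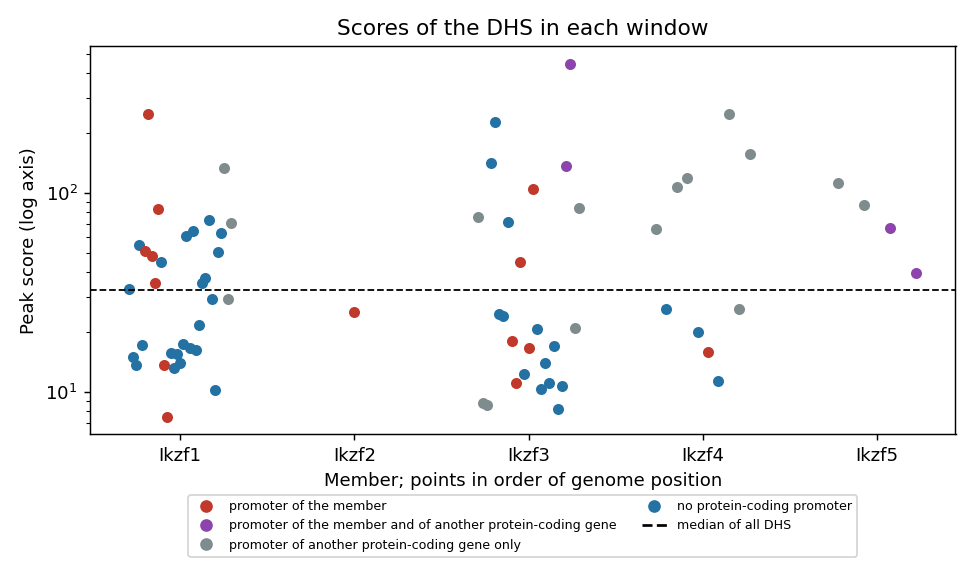
Each point is 1 DHS by its peak score on a log axis (vertical) and member (horizontal, in order of genome position within a member), coloured by the promoter it overlaps, and the dashed line is the median of all DHS, 32.65. The highest points belong to promoters, apart from the pair of Ikzf3 at 226.34 and 140.71, and no DHS of Ikzf2 or at the promoter of Ikzf4 reaches the line.

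Across the 73 DHS, 18 were at a promoter of the member, 4 in exons, 21 in introns, 11 upstream and 19 downstream. The median score was 42.2 for promoter DHS, 17.1 for the 25 in exons or introns and 52.9 for the 30 upstream or downstream. Over all classes, the 20 DHS at a promoter of another protein-coding gene had a median of 79.8, and the other 53 one of 20.8. The median score of all 73 was 29.3 and their median width was 788 bp, against 32.65 and 760 bp for the whole list. By member the median score was 33 for Ikzf1, with 17 of 33 DHS at or above the median of the list, and 20.8 for Ikzf3, with 9 of 25.

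CpG content went with the presence of a DHS over a start site. Of the 26 annotated TSSs, 10 were CpG-rich (at least 55% GC and a ratio of at least 0.6 in the surrounding 1 kb), and all 10 lay in a DHS. Of the other 16, 3 did, all of them in Ikzf1. Over all protein-coding genes 73.2% of CpG-rich TSSs and 22.7% of the others lay in a DHS. Neighbouring TSSs of a gene share a DHS and are not independent of each other, so that these counts describe 3 genes with a CpG-rich start (Ikzf1, Ikzf3 and Ikzf5) and 2 without (Ikzf2 and Ikzf4). By the wider promoter window, in which all 5 members had a DHS whatever their CpG content, 85.1% of protein-coding genes with a CpG-rich TSS had one against 35.1% of those without.

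**Figure D4:**
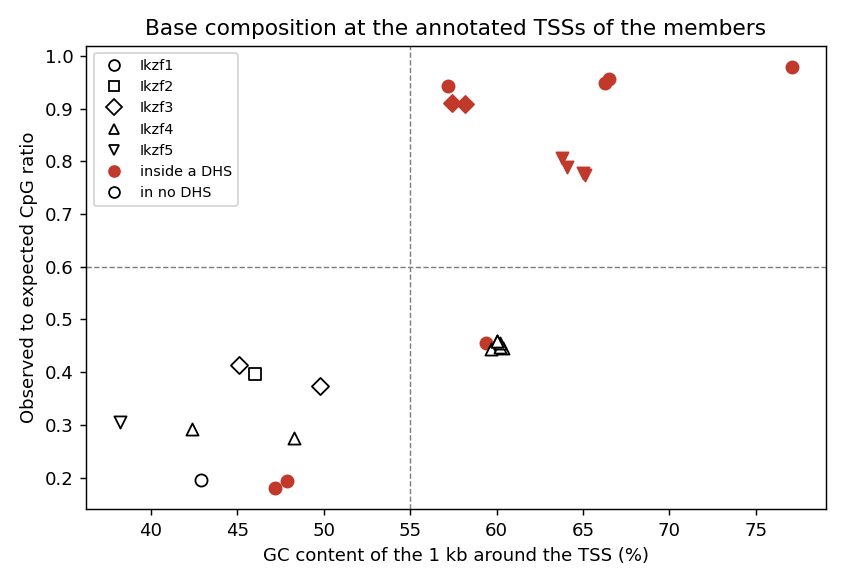
Each point is 1 annotated TSS of a member by the GC content of the surrounding 1 kb in percent (horizontal axis) and its observed to expected CpG ratio (vertical axis), with a symbol per member and filled red where a DHS covers the TSS. Dashed lines mark the limits of 55% and 0.6 for a CpG-rich TSS. All 10 points in the upper right are filled, and the 3 filled points outside it belong to Ikzf1.

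The Ikaros word was about as frequent in the DHS of the family as elsewhere. TGGGAA was found in the central 300 bp of 16 of 73 DHS, or 21.9% (95% Wilson interval 14.0 to 32.7), and in 25.6% of all DHS. It was present in 9 of 33 DHS of Ikzf1, 1 of 1 of Ikzf2, 4 of 25 of Ikzf3, 0 of 10 of Ikzf4 and 2 of 4 of Ikzf5. Among promoter DHS it occurred in pairs in the DHS over the first TSS of Ikzf1, in the Ikzf2 DHS and in the DHS over the Ikzf5 TSSs, as printed above.

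Words of other factors of B cells gave shares near the background as well. The Ets word was in 30.1% (20.8 to 41.4) of the 73 DHS and 29.5% of all DHS, and the E-box word in 17.8% (10.7 to 28.1) and 17.5%. The Runx word was in 19.2% (11.8 to 29.7) and 20.6%, and the EBF1 word in 4.11% (1.41 to 11.4) and 6.64%. The CTCF word was in 0 of 73, which allows a share of up to 5% by the same interval, and in 2.62% of all DHS. For each of the 6 words the interval of the family included the share of all DHS. A match describes the letters of the DNA and shows no binding.

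**Figure D5:**
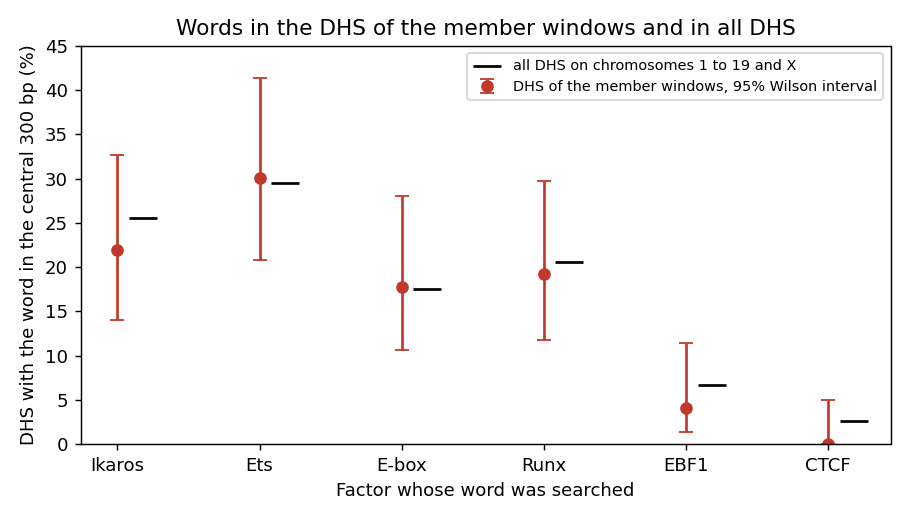
For each factor (horizontal axis) the red point is the percentage of the 73 DHS of the member windows with its word in the central 300 bp (vertical axis), with the 95% Wilson interval, and the black line is the percentage of all DHS on chromosomes 1 to 19 and X. Every interval spans its black line.

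Most genes of the partners of Ikaros proteins had a promoter DHS, as CpG-rich genes did in general. Of 22 partner genes, 21 had a promoter DHS, or 95.5% (exact binomial interval 77.2 to 99.9), beside the 57.0% of all protein-coding genes. Their median highest promoter score was 111, against 66.5 for the family. All but Gatad2b had a CpG-rich TSS, and the intervals of all partners and of NuRD alone include the 85.1% of CpG-rich genes given above. All 13 genes of the NuRD complex (75.3 to 100%) had one, including the remodelling ATPases Chd3 and Chd4, which scored 50.4 and 63.9, and the deacetylases Hdac1 and Hdac2, at 84.9 and 198. The scores of the complex ran from 10 for Gatad2b to 381 for Rbbp4, a histone-binding subunit. The corepressors gave 3 of 4, with 376 for Sin3a, 227 for Ctbp1 and 64.8 for Sin3b, and no promoter DHS was called at Ctbp2.

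The ubiquitin ligase of cereblon is the machinery through which thalidomide analogues degrade human Ikaros and Aiolos. All 5 of its genes had a promoter DHS (47.8 to 100%), all 5 are CpG-rich, and the interval includes both 57.0% and the 85.1% of CpG-rich genes. Cul4a scored 482, Ddb1 148, Cul4b 116, the substrate receptor Crbn 107 and Rbx1 103. A DHS covered a TSS in each of these 5 genes, as it did in 8 of 13 NuRD genes and 2 of 4 corepressor genes, beside the 46.6% of all protein-coding genes.

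The label of the cells was checked against marker genes. All 8 B cell markers (63.1 to 100%) had a promoter DHS, with 265 for Pax5 and 84.0 for Cd22, and each had a DHS over a TSS. Of the 8 T cell markers 2 had a promoter DHS (25%, 3.19 to 65.1), Lck and Foxp3, while Cd3d, Cd3e, Cd3g, Cd4, Cd8a and Cd28 had none. The Foxp3 DHS covered no Foxp3 TSS and was also at the promoter of Ppp1r3f, while Lck, a kinase gene of T cell receptor signalling, had 6 promoter DHS. Of these, 2 were also at the promoter of Fam167b, with 92.81 as the highest. The other 4 were at no other protein-coding promoter and scored 17.23 to 68.87, and 3 of them covered an Lck TSS. Of the 6 myeloid markers 3 had a promoter DHS (50%, 11.8 to 88.2), namely Itgam, Cd14 and Elane, with scores of at most 51.0, while Csf1r, Lyz2 and Mpo had none. All the markers but Pax5 lacked a CpG-rich TSS, for which the background was the 35.1% given above, so that both the T cell and the myeloid intervals include the background. A DHS covered a TSS in 1 of the 8 T cell and 1 of the 6 myeloid markers, beside 46.6% of all protein-coding genes. Itgam, with 18.2, scored close to the promoter DHS of Ikzf2 and Ikzf4, at 25.32 and 15.83. Cd14, with 51.0, and Elane, with 42.5, scored higher than both. The part of other cells of the selection in these DHS was not tested.

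The study concerns p53, and the windows were therefore also searched for the p53 response element, taken as 2 adjacent decamers with at most 2 mismatches. Ikzf4 had 6 such sequences, Ikzf2 had 2 and Ikzf3 had 1, at chr11:98330077-98330096 with 1 mismatch. Ikzf1 and Ikzf5 had 0. Of these 9, 0 lay inside a DHS of these unirradiated cells. DHS cover only 8.19% of the windows, and nothing is read from that count.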

How the data were processed

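The deposited file is the list of DHS of 1 DNaseI library, and the file of the 1 input library was not used here. Per the methods of the study, nuclei were digested with a range of DNase I amounts, the digest with the best signal over noise by qPCR was sequenced, and small fragments were selected. The submitters' processing notes name BWA 0.6.2, SAMtools and mm9. Peak names are those of MACS, whose version and settings for this library are not given in the sources used here. The unit is a score, the authors' value per peak, with no stated scale. Depth is unknown.

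Genes, TSSs and UTRs came from GENCODE M1, and sequence from NCBI build 37 (mm9). All peaks lay inside its chromosomes except 1, which passed the end of chromosome 19 by 52 bp. Overlap means at least 1 bp. Densities have exact Poisson, gene lists exact binomial and shares of DHS Wilson intervals at the 95% level. With 1 library no p-value is given, and where the list of all genes or all DHS stands beside the members, the members are part of it. The members and gene lists were chosen with earlier results of these data known. Lists came from general knowledge (NuRD, corepressors, cereblon ligase, and markers of B cells, T cells and myeloid cells). Named were every member, TSS and promoter DHS, the 3 other DHS of highest score per window, genes of other promoters where fewer than 6 per window, and list genes without a promoter DHS where fewer than 6 lacked one, otherwise those with one. Other DHS and list genes named, such as the DHS over the body of Ikzf4, were chosen after their values were seen. The p53 decamer was a purine triplet, C, A or T in the next 2 places, G and a pyrimidine triplet, with no mismatch at C or G. Scripts ran in Python 3.11.15 with scipy 1.17.1, numpy 2.4.6 and matplotlib 3.10.9 and were tested on simulated data.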

Additional observations from a re-analysis of the deposited data

How the results depend on the processing

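With 1 library, no replicate could be left out, and every statement rests on that library alone. A count of genes was taken as moved when it changed by over 1.5 times, the median score when it changed at all, and a density or share when it left the 95% interval of the main value (6.65 to 10.7 DHS per 100 kb, 14.0 to 32.7%). By these rules 11 of 30 alternative values moved and 19 did not. Counting fewer DHS, or a shorter or longer word, changes a value by construction, so that the tally is a description only. The members with a promoter DHS fell from 5 to 3, without Ikzf2 and Ikzf4, when only DHS at or above the median score counted, and likewise to 3 when a DHS had to cover a TSS, a setting chosen after seeing the data. With 1 kb on each side of the TSS 4 were left, without Ikzf2. Partner genes gave 19 to 21, and the median highest promoter score was 66.5 in every setting tried, the value of Ikzf5. The other members did not all keep their values. When promoters were narrowed to 1 kb either way, the highest score fell from 445.74 to 135.91 for Ikzf3, under the 248.49 of Ikzf1, and from 25.32 to 0 for Ikzf2, under the 15.83 of Ikzf4. The pooled density of 8.48 DHS per 100 kb became 4.07 at or above the median score, 6.39 with DHS closer than 500 bp merged, 10.8 over gene bodies only and 11.3 with 10 kb on either side. It was 4.76 without DHS at promoters of any other gene and 6.16 without those at other protein-coding promoters, the latter chosen after seeing the data. In each of these settings it stayed above the median protein-coding gene, which had 1.78, 2.74, 2.31, 3.39, 1.26 and 1.59 in the same order. Ikzf2 by itself stayed under the median gene in each. The share of DHS with the Ikaros word was 65.8% over whole DHS (54.6% of all DHS), 61.6% for GGGAA (62.0%) and 6.85% for TTGGGAA (5.91%). Over whole DHS the lower bound of its interval, 54.3%, was just under the share of all DHS. Missed DHS limit all counts, since the depth is unknown.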
